A study of Mus musculus with 2 samples.

Results

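Fibroblasts with at most 1 UMI of the adventitial marker transcripts Pi16 and Dpp4 were the larger of 2 fibroblast groups in single-cell RNA-sequencing libraries of the mouse mammary gland. A cell was taken as a fibroblast when Col1a1, Col1a2, Col3a1, Dcn and Lum together made up at least 1% of its unique molecular identifiers (UMIs, each counting 1 captured RNA molecule), when it held more UMIs of Dcn and Lum than of Rgs5 and Notch3, when it held no UMI of Ptprc, and when Krt8, Krt18 and Krt14 together gave fewer UMIs than Col1a1 and Col1a2. Among these fibroblasts, the cells with fewer than 2 UMIs of Pi16 and Dpp4 together were kept, and they are called cells without Pi16 and Dpp4 here. The rule found 343 cells among 15632 retained cells, 184 of 6297 from the library that carries the label Ctrl and 159 of 9335 from its CL counterpart. Of these, 153 and 140 held no UMI of either gene, and 31 and 19 held 1. The other 99 fibroblasts (57 and 42), which held at least 2 such UMIs, are called adventitial fibroblasts here.

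The study asked how mammary cells, above all the epithelial stem cells, depend on macrophages. The labels give 1 library of primary mammary gland cells from control mice and 1 from mice given CL, clodronate liposomes, a reagent that kills phagocytes after uptake. The study's methods describe wild-type females, repeated intraperitoneal CL injections before the glands were harvested, enzymatic digestion of the tissue and a sort that took away CD31+ endothelial and Ter119+ red cells. The mice were 9 to 10 weeks old by the sample labels and 8 to 10 weeks old by the protocol. The labels name neither the strain, nor the number of pooled animals, nor what the control mice received. With 1 library per condition, treatment, animal and library cannot be told apart, and every interval below is a 95% interval for counting error only. The markers of macrophages went against the label: 8 such genes summed to 63.1 CPM (UMIs of a gene in every 1000000) in the other retained cells of the Ctrl library and to 208 CPM in those of the CL library, so the libraries are named by their labels only. The reason for this was not tested.

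Fibroblasts of the mammary stroma build the collagen scaffold around ducts and fat, supply the epithelium with growth factors, and produce chemokines that draw in and maintain leukocytes. In several mouse organs, fibroblasts with Pi16 and Dpp4 line the adventitia of vessels and are regarded as a reserve from which the more specialised fibroblasts of the parenchyma arise. Interferon gamma, a product of T and NK cells, makes fibroblasts transcribe antigen-presentation genes and T cell chemokines, whereas TNF acts largely through NF-kB.

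The fibroblast label was checked with Postn and Tnfaip6, which the rule did not use. Postn, encoding the matrix protein periostin, stood at 3823 CPM in the Ctrl library and 2970 CPM in the CL library. Tnfaip6, encoding the hyaluronan-modifying protein TSG-6, stood at 3371 and 3978 CPM. Adventitial fibroblasts held Postn at 4501 and 4275 CPM and Tnfaip6 at 2999 and 2560 CPM, so both genes were abundant in both fibroblast groups. When each cell was thinned to 1851 UMIs, Tnfaip6 was found in 84.9% and 90.2% of the cells, against 1.80% and 1.20% of T cells, which should lack it. Postn was found in 68.1% and 65.0% of the thinned cells, against 0.901% and 0.996% of T cells. Before thinning, 59 of 184 and 57 of 159 cells held no Postn, and in 2 clusters it was nearly missing, at 0 to 86.1 CPM in both libraries, so Postn marks only some of these cells. Thinning left out 18 and 16 shallower fibroblasts. Of the genes that the rule used, Dcn summed to 14348 and 13833 CPM, Col1a1 to 7476 and 4074 CPM, Col3a1 to 6430 and 3977 CPM, and Lum to 2358 and 1817 CPM. After the nuclear RNA Malat1, Dcn was the most abundant transcript of these cells in both libraries together.

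Markers of most other cell types were low. The 8 macrophage markers gave 6 UMIs in all in the Ctrl cells and 11 in the CL cells, with Adgre1 and Fcgr1 at 0 in both. The 8 T and NK cell markers gave 11 and 16 UMIs, and the 8 mural markers 67.0 and 62.6 CPM. Endothelial markers summed to 20.8 and 51.3 CPM, of which Pecam1 gave 1 UMI and 14 UMIs. The 8 basal epithelial markers summed to 208 and 285 CPM (0.45, 0.21 to 0.70), above the ceiling on free RNA explained next (152 and 138 CPM) and above the adventitial cells (61.7 and 60.2 CPM). Of them Acta2, which mural cells share, gave 63.2 and 141 CPM, with 84.0% of its CL UMIs in 1 cell, and the part of these markers in the results was not tested. The 8 luminal epithelial markers summed to 1529 and 1345 CPM, against 16325 and 16530 CPM in nearly empty droplets with 100 to 300 UMIs. For 6 of these luminal genes the fibroblasts held 10.2% and 9.24% of the level in such droplets, and these percentages of a gene's level in empty droplets are used below as the ceiling on what free RNA could add.

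The libraries held 118743318 and 155765480 UMIs. The Ctrl fibroblasts without Pi16 and Dpp4 held 658 to 30323 UMIs per cell with a median of 6593, and the CL cells 943 to 33946 with a median of 4954. Their sums came to 1343984 and 974040 UMIs. The median cell had 2359 and 1920 detected genes and 2.32% and 2.38% mitochondrial UMIs. The adventitial fibroblasts were deeper, with medians of 10392 and 9992.5 UMIs, and a shallow cell more easily shows fewer than 2 UMIs of Pi16 and Dpp4, and how many adventitial cells the threshold lets in for that reason was not tested.

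The threshold on Pi16 and Dpp4 fell in a continuous tail. In the Ctrl library 153 cells had no such UMI, 31 had 1, 15 had 2, 8 had 3, 7 had 4, 6 had 5 and 21 had more. In the CL library the numbers were 140, 19, 7, 6, 4, 2 and 23. Just inside the threshold, at 1 UMI, Col1a1 stood at 10176 CPM in Ctrl and 3126 CPM in CL, and just outside it, at 2 UMIs, at 8265 and 4697 CPM. Dcn was alike on both sides in the Ctrl library, at 13979 CPM inside and 13988 CPM outside. Cd34, a surface sialomucin of stromal progenitors, was at 523 and 303 CPM inside and at 658 and 382 CPM outside. The fibroblast limit of 1% likewise had cells close to it: 17 Ctrl and 28 CL cells lay between 1% and 1.5%, while the median cell gave 3.23% and 2.40% of its UMIs to the 5 genes.

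**Figure D1:**
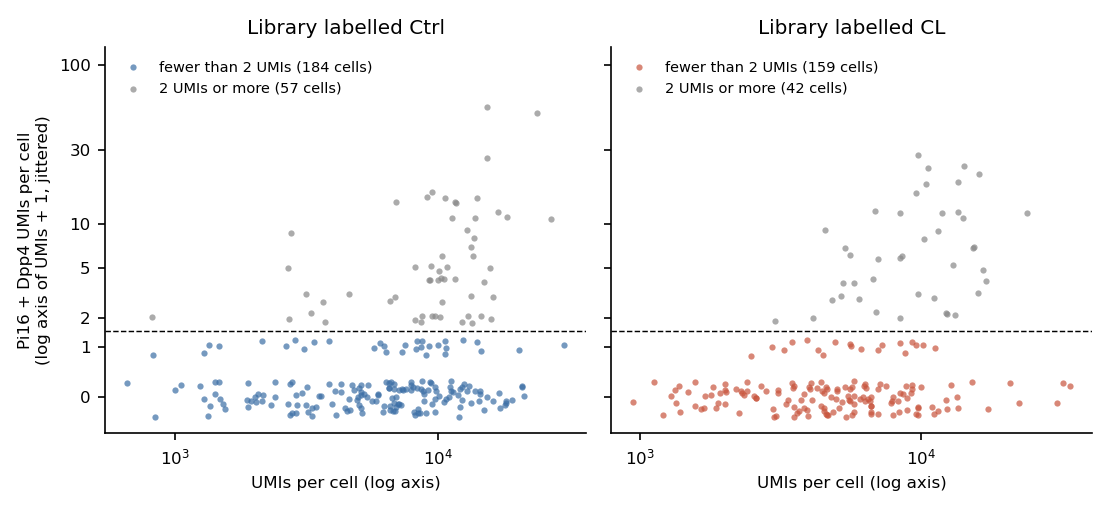
UMIs of Pi16 and Dpp4 together in each fibroblast (vertical axis, log scale of UMIs plus 1, jittered) against the UMIs of the cell (horizontal log axis), 1 point per cell and 1 panel per library, with a dashed line at the threshold. The 184 Ctrl and 159 CL cells below the line reach down to shallower depths than the 57 and 42 cells above it, and the counts thin out without a gap at the line.

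The cells made up 2.92% of the retained Ctrl cells (exact binomial interval 2.52 to 3.37) and 1.70% of the retained CL cells (1.45 to 1.99), a log2 ratio of CL over Ctrl of -0.78 (-1.09 to -0.46). Among cells without a UMI of Ptprc, the pan-leukocyte gene, they made up 3.08% of 5975 and 1.96% of 8115 cells, a log2 ratio of -0.65 (-0.97 to -0.34). The adventitial fibroblasts had a log2 ratio of -1.01 (-1.62 to -0.41), from 0.905% to 0.450% of retained cells. Within all fibroblasts, those without Pi16 and Dpp4 were 184 of 241 (76.3%, 70.5 to 81.6) and 159 of 201 (79.1%, 72.8 to 84.5), which overlapped within counting error. Both fibroblast groups were thus a smaller share of the CL library, while the balance between them was not seen to differ at this depth. The sort and the yield of the digestion set such shares, and their part was not tested.

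For gene levels, the UMIs of all cells of a library were summed and expressed as CPM of that sum. A gene was called measured when the cells of both libraries together gave at least 50 UMIs, which left 5513 genes with a median log2 ratio of CL over Ctrl of -0.03. Of these, 554 (10.0%) were higher and 715 (13.0%) lower in the CL cells past counting error, meaning that the exact interval of the ratio excluded 0. At least 2-fold differences were found for 86 genes upward (1.56%) and 147 downward (2.67%). With a minimum of 200 UMIs in place of 50, the counts were level, at 27 upward and 27 downward. The 2 libraries also filled clusters of similar transcriptomes, described at the end, in different numbers. Of 9 clusters, 3 held fewer than 10 of these cells from one library or the other, among them a cluster of 31 Ctrl and 5 CL cells. Without those 3 clusters, which left 134 Ctrl and 148 CL cells, 69 genes were at least 2-fold higher and 73 at least 2-fold lower. These 3 clusters were set apart after seeing the data, and values without them are given below beside many of the lists and genes that they moved. Only cells without Pi16 and Dpp4 were left out in this way. Of the adventitial fibroblasts, 20 of 57 Ctrl cells but 4 of 42 CL cells lay in 1 of these clusters. The adventitial ratios below include them, and the part of this unevenness in those ratios was not tested. Cells varied more than molecules do by chance, as described at the end, so these intervals are narrower than the spread between cells would make them.

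**Figure D2:**
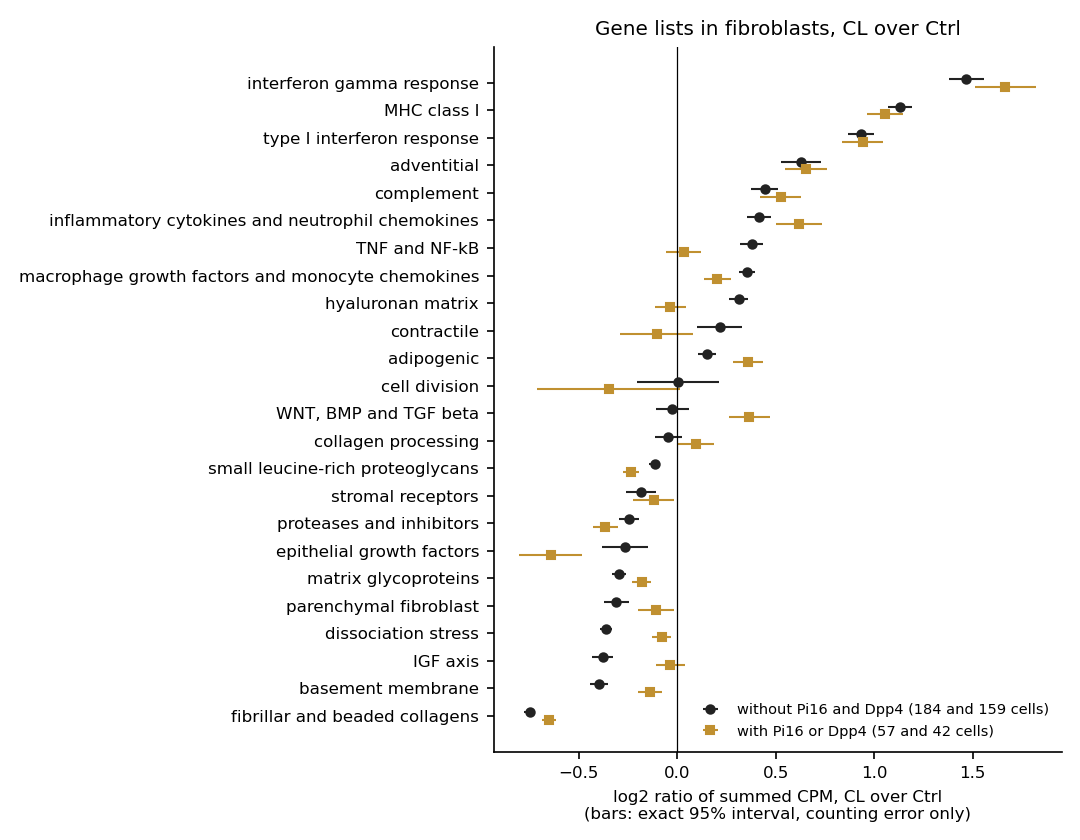
Log2 ratio of CL over Ctrl for the summed CPM of each gene list (horizontal axis), in fibroblasts without Pi16 and Dpp4 and in adventitial fibroblasts, with 95% intervals for counting error and without the MHC class II list, which had no measured gene. Lists of interferon response and MHC class I genes lie farthest to the right, at 0.93, 1.47 and 1.13, and the collagen list farthest to the left, at -0.75.

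Collagen transcripts were lower in the CL cells. The 12 fibrillar and beaded collagen genes summed to 25802 CPM in the Ctrl cells against 15355 CPM in the CL cells, a log2 ratio of -0.75 (-0.78 to -0.72). Of these genes 8 were lower, 1 was higher and 3 lay within counting error, and their median log2 ratio was -0.64. Col1a1 (ENSMUSG00000001506, chr11:94936224-94953042, plus strand, GRCm38) and Col1a2, which encode the chains of type I collagen, had log2 ratios of -0.88 and -0.84, with Col1a2 at 6804 and 3804 CPM. Col3a1, the type III chain that is laid down with type I, had a ratio of -0.69. The beaded-filament genes Col6a1 (1743 and 1048 CPM) and Col6a2 (1229 and 692 CPM) had ratios of -0.73 and -0.83. Col6a3, whose product joins them in the same trimer, was at 443 and 419 CPM with an interval from -0.27 to 0.10. Col5a3 was the exception, at 114 and 154 CPM (0.44, 0.10 to 0.77). In each library's own cells the collagen sum ranged widely: its median per cell was 17510 CPM in Ctrl (10th to 90th percentile 6092 to 43280) and 9084 CPM in CL (3314 to 28506). The middle of the CL distribution thus lay low in the Ctrl distribution, with broad overlap. The adventitial fibroblasts gave a log2 ratio of -0.65 for the same sum. Col1a1, Col1a2 and Col3a1, which make up most of the sum, also served to find fibroblasts, and a limit of 2% in place of 1% left 149 Ctrl but only 100 CL cells, with a ratio of -0.58. Without the 3 unevenly held clusters the ratio was -0.60, and those of Col6a1 and Col6a2 were -0.43 and -0.54.

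Other matrix genes followed in part. Among 18 matrix glycoprotein genes, 13 were lower, 2 higher and 3 within counting error, with a median log2 ratio of -0.46 and a summed ratio of -0.30 (-0.33 to -0.26). Eln, encoding elastin, went from 145 to 65.7 CPM (-1.14, -1.57 to -0.73), but to a ratio of only -0.35 without the unevenly held clusters. Smoc2, a calcium-binding matricellular protein, went from 306 to 155 CPM (-0.98), and Fn1, fibronectin, from 1114 to 773 CPM (-0.53). The antiangiogenic glycoprotein gene Thbs1 was higher, at 2197 and 2527 CPM (0.20, 0.12 to 0.28), but its ratio was 0.053 without those clusters. The microfibril gene Fbn1, at 169 and 205 CPM, was the other gene above Ctrl, with an interval that began at 0.00.

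The small leucine-rich proteoglycans, which bind collagen fibrils and set their width, were lower for 6 of 7 measured genes, but the sum hardly moved (18616 and 17204 CPM, -0.11) because Dcn, which dominates it, had a ratio of -0.05. Lum and Bgn had ratios of -0.38 and -0.33, whereas Ogn, osteoglycin, was higher at 215 and 259 CPM (0.27, 0.02 to 0.52). Basement membrane genes were mostly alike, with 7 of 12 within counting error, 4 lower and 1 higher. Their sum of 7818 and 5943 CPM (-0.40) was carried by Sparc, a collagen-binding protein also found outside basement membranes, which went from 4448 to 2837 CPM (-0.65). Col4a1, the main chain of the type IV network, was the gene on the other side, at 517 and 614 CPM (0.25, 0.09 to 0.41).

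The 13 enzymes that fold, trim and crosslink collagen were lower in 5 cases, higher in 2 and within counting error in 6, with a median log2 ratio of -0.17. Their sum was 3125 and 3029.7 CPM (-0.04, -0.11 to 0.02). Lox, the lysyl oxidase that crosslinks collagen and elastin, was higher, at 123 and 262 CPM (1.09, 0.80 to 1.38). Thinned cells gave a UMI of Lox in 18.1% and 33.6% of cases. Pcolce, an enhancer of procollagen C-proteinase, was at 177 and 279 CPM (0.66). Adamts2, the procollagen N-proteinase, was lower at 208 and 109 CPM (-0.94), and the lysyl hydroxylase gene Plod2 was at 125 and 70.8 CPM (-0.82).

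Timp3 had the lowest ratio of the matrix genes. This gene (ENSMUSG00000020044, chr10:86300372-86349506, plus strand) encodes a matrix-bound inhibitor of metalloproteinases, including the sheddase that releases TNF. It stood at 839 CPM in Ctrl and 215 CPM in CL, a log2 ratio of -1.97 (-2.19 to -1.75). The median cell had 307 CPM in Ctrl and 0 in CL, and 57 of 184 and 106 of 159 cells held no UMI. Thinned to one depth, 47.6% and 25.9% of the cells held a UMI, against 69.0% and 33.3% without thinning. The cluster of 31 Ctrl and 5 CL cells had the highest Timp3 level, 1618 CPM in Ctrl, and without the unevenly held clusters the ratio was -1.61. Adventitial fibroblasts showed the same direction, at 956 and 326 CPM (-1.55). Among the 11 measured proteases and inhibitors 6 were lower, 2 higher and 3 within counting error, and their summed ratio of -0.25 was -0.026 without the unevenly held clusters. The gelatinase gene Mmp2 went from 1167 to 810 CPM (-0.53) and the metalloproteinase gene Mmp19 from 317 to 158 CPM (interval -1.28 to -0.73), with a ratio of only -0.25 without those clusters. Mmp3, stromelysin 1, and Adamts5, an aggrecanase, were the 2 higher genes, at 1187 and 1504 CPM (0.34) and at 137 and 245 CPM (0.84). Mmp2 had a ratio of -0.29 and Mmp3 one of 0.77 without the unevenly held clusters. Timp2 was at 953 and 818 CPM (-0.22), and Timp1 at 290 and 329 CPM within counting error.

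**Figure D3:**
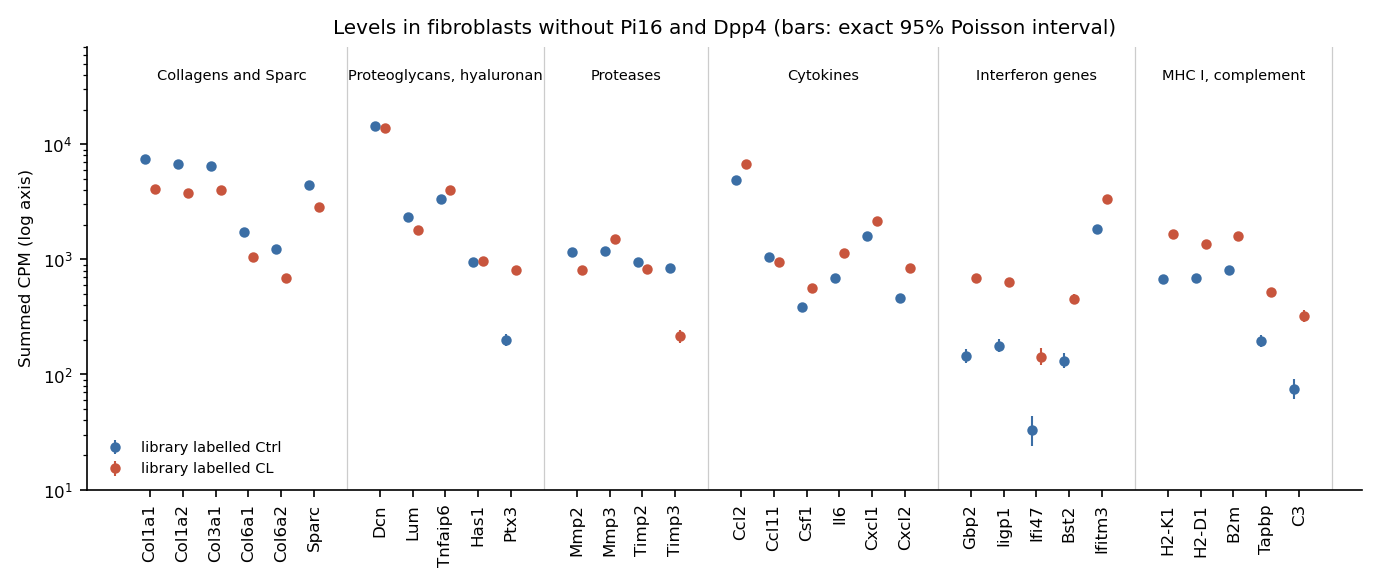
CPM in the Ctrl and CL libraries of selected genes of fibroblasts without Pi16 and Dpp4 (log axis), with exact Poisson 95% intervals. Timp3 stands at 839 and 215 CPM and Col1a1 at 7476 and 4074 CPM, whereas Gbp2 stands at 146 and 687 CPM and Ptx3 at 201 and 814 CPM.

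Genes of the hyaluronan matrix summed to 5216 CPM in the Ctrl cells and to 6475 CPM in the CL cells (0.31, 0.26 to 0.36). Of 6 measured genes 3 were higher, 2 lower and 1 within counting error. Ptx3 (ENSMUSG00000027832, chr3:66219910-66225805, plus strand), a pentraxin that joins TSG-6 in crosslinking hyaluronan and also binds microbes, had the largest difference, 201 and 814 CPM (2.02, 1.82 to 2.22). Only 44 Ctrl and 47 CL cells held a UMI of it. In the adventitial fibroblasts its ratio was 1.41. Tnfaip6, which gave most of the sum, had a ratio of 0.24 (0.18 to 0.30), 0.12 without the unevenly held clusters, and was lower in CL in 4 of the other 6 clusters and higher in 2. Cd44, the hyaluronan receptor, went from 408 to 514 CPM (0.34). The synthase gene Has1 was at 941 and 959 CPM, within counting error (-0.24 without those clusters), and Has2 was lower at 72.9 and 37.0 CPM (-0.98).

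Growth factors for the epithelium summed to 1219 CPM in the Ctrl cells and to 1014 CPM in the CL cells (-0.26, -0.38 to -0.15). Of 8 measured genes 1 was higher, 3 were lower and 4 lay within counting error, with a median of -0.33. Vegfa, an angiogenic factor, went from 654 to 502 CPM (-0.38), and Vegfd was the higher gene, at 41.7 and 76.0 CPM (0.87, 0.35 to 1.39). Hgf, a ligand of the epithelial receptor Met, was at 78.1 and 74.9 CPM, and Fgf7, which acts on an epithelial FGF receptor, at 42.4 and 41.1 CPM, both within counting error. Ereg, epiregulin, was lower (77.4 and 32.9 CPM), but 1 CL cell gave 47% of its CL UMIs, and without the unevenly held clusters the ratio turned to 1.17. For Areg, amphiregulin, at 176 and 144 CPM, the empty droplets held 1778 and 1458 CPM, which put the ceiling on free RNA at 181 CPM in Ctrl, above its level, and at 135 CPM in CL, just under it. Without those clusters Areg had a ratio of -0.78 and Vegfa one of -0.22.

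Among 15 measured genes of WNT, BMP and TGF beta signalling 10 lay within counting error, 2 were higher and 3 lower. The summed ratio was -0.03, and 0.21 without the unevenly held clusters. Sfrp2, a secreted WNT modulator, was at 190 and 361 CPM (0.93, 0.69 to 1.17). Wnt5a, a ligand of noncanonical WNT signalling, was at 80.4 and 28.7 CPM (-1.48, -2.14 to -0.87), and Bmp2 at 108 and 61.6 CPM (-0.81, but -0.26 without those clusters). The 3 TGF beta genes were low, and the measured Tgfb1 (74.4 and 54.4 CPM) and Tgfb2 (41.7 and 33.9 CPM) lay within counting error.

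All 7 measured genes of the IGF axis differed past counting error, 3 higher and 4 lower. Igfbp3, among the 4, turned from -0.72 to 0.90 without the unevenly held clusters, and Igfbp4, among the 3, went to 0.044. Igf1, the growth factor itself, was at 166 and 227 CPM (0.45, 0.18 to 0.73). Of its binding proteins, Igfbp2 was higher (49.9 and 111 CPM, 1.15) and Igfbp4 slightly so (749 and 919 CPM, 0.29). Igfbp6, which prefers IGF2, went from 2226 to 1353 CPM (-0.72) and Igfbp7 from 1959 to 1506 CPM (-0.38, or -0.63 without those clusters). Igfbp5 went from 340 to 130.4 CPM (-1.38), while the empty droplets held 795 and 595 CPM, so up to 10.2% and 9.24% of those levels could be free RNA. The receptors through which stromal cells read growth factors were lower for 4 of 13 measured genes and higher for 1. Pdgfra, a defining receptor of fibroblasts, was at 525 and 336 CPM (-0.65), Pdgfrb at 225 and 119 CPM (-0.92) and the TGF beta coreceptor gene Tgfbr3 at 260 and 340 CPM (0.38, or 0.62 without those clusters). The receptors Egfr (193 and 200 CPM) and Fgfr1 (600 and 630 CPM) were within counting error.

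Chemokines and macrophage growth factors were higher in sum in the CL cells, with most of the sum from 1 gene. The sum of the list was 7629.6 CPM against 9755 CPM in the CL cells (0.35, 0.31 to 0.39), with 5 of 9 measured genes higher, 2 lower and 2 within counting error. Without the unevenly held clusters the sum was level, at 0.027. Ccl2 (ENSMUSG00000035385, chr11:82035571-82037453, plus strand), the main attractant of classical monocytes, stood at 4850.5 and 6797 CPM (0.49, 0.44 to 0.54), and its ratio was 0.17 without those clusters. Csf1, the macrophage growth factor, stood at 383 and 561 CPM (0.55, 0.37 to 0.73), with higher CL levels in 3 of the 6 other clusters and lower ones in 3. Il34, the other ligand of the same receptor, went the other way, at 81.1 and 39.0 CPM (-1.06, -1.63 to -0.51). Cxcl12, which retains leukocytes and progenitors, was at 294 and 418 CPM (0.51). The monocyte chemokine Ccl7 was at 799 and 770 CPM, within counting error. Ccl11, the eosinophil chemokine eotaxin, was at 1056 and 942 CPM (-0.16), and Ccl8 at 96.0 and 144 CPM (0.58). The last 2 changed sign when each cell counted equally, to 0.031 and -0.060. With the unevenly held clusters left out, the ratios were -0.54 for Ccl7, 0.22 for Cxcl12, -0.54 for Ccl11 and 0.11 for Ccl8.

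Ccl2 was spread very unevenly over cells. The median cell held 198 CPM in Ctrl and 1339 CPM in CL, 75 and 43 cells held none, and the highest cells reached 187199 and 290299 CPM. After thinning, 48.2% and 60.8% of the cells held a UMI. Il6, the inflammatory cytokine, was similarly concentrated, at 693 and 1125 CPM (0.70, 0.57 to 0.83), found in 31.9% and 42.7% of thinned cells. With each cell counted equally its ratio was 0.059, with the fibroblast limit at 2% it was 0.17, and without the unevenly held clusters 0.29. Cxcl1 and Cxcl2, which attract neutrophils, stood at 1610.1 and 2175 CPM (0.43) and at 458 and 835 CPM (0.86), the latter with a ratio of 0.37 without those clusters. Il33, an alarmin, was lower at 141 and 68.8 CPM (-1.04, or -1.58 without them). The IL-6 family cytokine Lif had a ratio of -0.76 (-1.06 to -0.48), which became 0.011 without the unevenly held clusters. In all, 4 of the 9 measured inflammatory genes were higher and 3 lower, with a summed ratio of 0.42 (0.36 to 0.47), or 0.21 without those clusters.

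Receptors and target genes of TNF and NF-kB were higher for 9 of 12 measured genes and lower for none, with a median of 0.34. Icam1, a leukocyte adhesion molecule, was at 153 and 295 CPM (0.95, 0.69 to 1.22), and Sod2, the mitochondrial superoxide dismutase, at 368 and 645 CPM (0.81). Nfkbia, the inhibitor that NF-kB itself induces, was at 1086 and 1264 CPM (0.22), and the receptor gene Tnfrsf1a at 141 and 178 CPM (0.33, 0.02 to 0.63). Icam1 had a ratio of 0.49, Nfkbia one of 0.074 and the list's sum one of 0.28 without the unevenly held clusters. The adventitial fibroblasts gave a summed log2 ratio of 0.03 (-0.06 to 0.12) for this list, against 0.38 (0.32 to 0.44) in the cells without Pi16 and Dpp4. The 2 intervals do not overlap, but they cover counting error only.

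Interferon response and MHC class I genes had the highest summed ratios of the lists with measured genes. Of the 15 measured genes of the interferon gamma list, 12 were higher in the CL cells, 10 of them at least 2-fold, 2 were lower and 1 lay within counting error. Their median log2 ratio was 1.82 and their sum went from 1119.8 to 3096 CPM (1.47, 1.38 to 1.56). Without the unevenly held clusters the summed ratio was 1.24, and those of the type I and MHC class I lists described below were 0.72 and 0.98. Gbp2 (ENSMUSG00000028270, chr3:142620602-142638008, plus strand), a guanylate-binding GTPase that acts against intracellular pathogens, was at 146 and 687 CPM (2.24, 2.00 to 2.47). Iigp1 and Ifi47, immunity-related GTPases, were at 179 and 641 CPM (1.84) and at 32.7 and 143 CPM (2.12, or 1.47 without those clusters). Irf1, a transcription factor induced by interferon, was at 106 and 183 CPM (0.78, or 0.35 without them). The chemokine gene Cxcl10, which attracts T cells through CXCR3, was at 175 and 409 CPM (1.22, 0.99 to 1.46). Its direction differed between the clusters described at the end, higher in 3 of 6 and lower in 3, and the cluster led by H19 went from 219 to 1515 CPM. Cxcl9, a ligand of the same receptor, was at 2.23 and 232 CPM, with its UMIs in 2 Ctrl and 9 CL cells and 31.9% of the CL UMIs in a single cell. The receptor genes did not follow. Ifngr1 was at 112 and 95.5 CPM within counting error, Ifngr2 at 72.9 and 51.3 CPM (-0.51), and Socs1, a feedback inhibitor, at 82.6 and 57.5 CPM (-0.52).

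The shift of the list as a whole, and of Gbp2 and Iigp1, was spread over cells. The interferon gamma list had a median per cell of 600.3 CPM in Ctrl and 1659 CPM in CL, and 25 and 10 cells held none of its UMIs. Thinned cells held a UMI of Gbp2 in 17.5% (12.0 to 24.1) and 51.7% (43.2 to 60.2) of cases, against 34.8% and 71.7% before thinning. Iigp1 was found in 15.1% and 44.1% of thinned cells. The same genes were found in 5.41% and 9.76% (Gbp2) and 0.901% and 1.59% (Iigp1) of thinned T cells. Empty droplets held 36.0 and 285 CPM of Gbp2, and the ceiling on free RNA drawn from them stood at 3.66 and 26.3 CPM, far under the levels in the fibroblasts. T cells made up 112 retained cells of the Ctrl library and 507 of the CL library, and the part of this difference in the fibroblast levels was not tested.

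**Figure D4:**
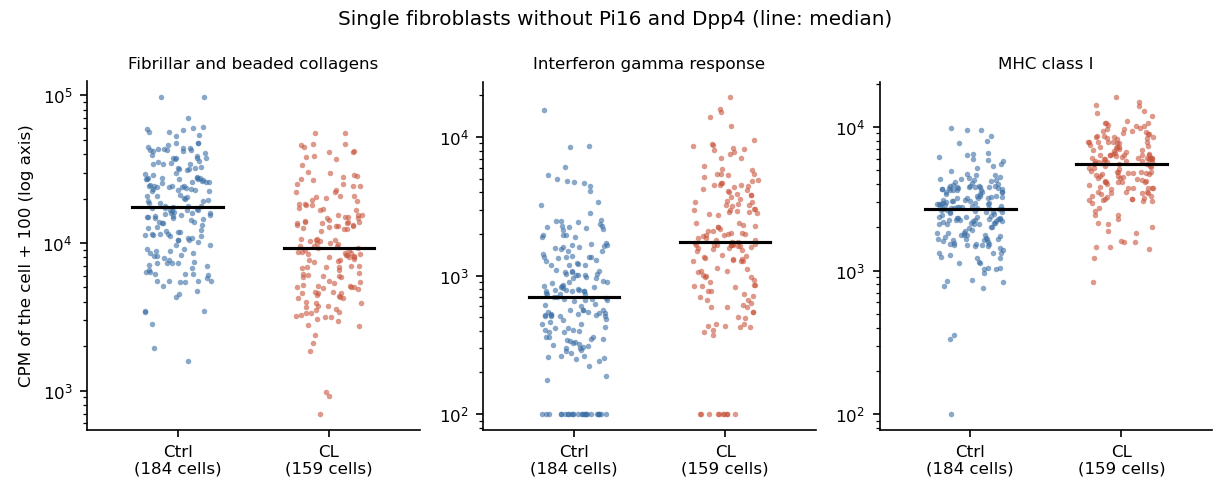
CPM plus 100 (log axis) of the collagen, interferon gamma and MHC class I lists in single fibroblasts without Pi16 and Dpp4, 1 point per cell, with a line at the median of each library. The Ctrl medians of 17510, 600.3 and 2561 CPM and the CL medians of 9084, 1659 and 5435 CPM lie within overlapping clouds of points.

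Type I interferon response genes were higher for 7 of 9 measured genes, 4 of them at least 2-fold, and lower for none. Their sum went from 2294 to 4378 CPM (0.93, 0.87 to 1.00), most of it from Ifitm3, an antiviral membrane protein, at 1850 and 3347 CPM (0.86). Bst2, tetherin, which holds budding virus at the cell surface, was at 132 and 454 CPM (1.78, 1.53 to 2.04), Ifit1 at 52.1 and 120 CPM (1.21) and Isg15, a ubiquitin-like modifier, at 132 and 198 CPM (0.58, or 0.28 without the unevenly held clusters). Bst2 was found in 15.7% and 53.1% of thinned fibroblasts.

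The MHC class I list, which covers the heavy chains, their light chain and the peptide-loading machinery, was higher for 11 of 12 measured genes and lower for none. Its sum went from 2734 to 5992 CPM (1.13, 1.07 to 1.19), with a median of 1.21. B2m, the light chain, was at 804 and 1608 CPM (1.00, 0.89 to 1.11), and the heavy chain genes H2-K1 and H2-D1 were at 670 and 1651 CPM (1.30) and at 685 and 1351 CPM (0.98). Tapbp, which bridges the heavy chain to the peptide transporter, was at 196 and 517 CPM (1.40), and the immunoproteasome subunit gene Psmb9 at 14.1 and 51.3 CPM (1.86). The heavy chains are near-identical paralogs, and reads that match several of them may be split or dropped in counting, so H2-K1 and H2-D1 levels are uncertain. The list was also higher in empty droplets, at 3954 and 5544 CPM, of which the stated percentages could enter as free RNA. MHC class II genes, which belong to professional antigen-presenting cells, were below the measuring limit in all 7 cases, at 33.5 and 102 CPM in sum. The adventitial fibroblasts showed log2 ratios of 1.66, 0.94 and 1.05 for the interferon gamma, type I and MHC class I sums, so these shifts were not particular to the cells without Pi16 and Dpp4.

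Promoter sequences were read for Gbp2, B2m and Bst2, 1 gene from each of the 3 lists above, as 250 bases ending at the RefSeq transcription start (assembly GRCm38.p6). They are printed on the strand of the gene, with capitals at matches to the interferon-stimulated response element, or ISRE, searched as TTTC, any 2 bases and TTTC (on the other strand GAAA, any 2 bases and GAAA), and to the gamma-activated site, or GAS motif, TTCNNNGAA.
Gbp2, chr3:142620413-142620662, plus strand: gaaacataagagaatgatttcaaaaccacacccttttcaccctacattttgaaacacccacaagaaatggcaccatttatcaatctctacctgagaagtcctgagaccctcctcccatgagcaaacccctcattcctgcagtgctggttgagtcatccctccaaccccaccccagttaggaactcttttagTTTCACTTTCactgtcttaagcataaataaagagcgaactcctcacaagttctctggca
B2m, chr2:122147437-122147686, plus strand: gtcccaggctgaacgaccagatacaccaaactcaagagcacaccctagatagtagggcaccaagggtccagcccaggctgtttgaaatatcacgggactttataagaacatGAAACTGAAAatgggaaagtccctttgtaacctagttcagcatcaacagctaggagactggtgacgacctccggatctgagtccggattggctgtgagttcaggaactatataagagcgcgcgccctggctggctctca
Bst2, chr8:71537473-71537722, minus strand: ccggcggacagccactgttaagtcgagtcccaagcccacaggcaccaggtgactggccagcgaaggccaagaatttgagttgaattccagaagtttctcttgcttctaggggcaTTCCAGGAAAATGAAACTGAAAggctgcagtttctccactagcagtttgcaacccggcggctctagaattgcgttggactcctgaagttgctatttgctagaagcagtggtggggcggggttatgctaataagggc
In Gbp2 and B2m a single ISRE match is capitalised, and in Bst2 the run holds 1 GAS match and 2 ISRE matches, of which the first overlaps the GAS match and the second overlaps the first. The printed genes all hold a match, but other higher genes, among them Cxcl9, Ifi47, H2-K1, H2-D1 and Tapbp, had none. Socs1, which was lower in CL, had 2 ISRE matches. The 300 bases around each start in the RefSeq table were searched, and a gene counted once if any of its starts had a match. An ISRE match was present in 7 of the 12 interferon gamma genes with a promoter there (58.3%) and in 5 of 8 type I genes (62.5%). It was present in 2 of 11 MHC class I genes (18.2%), none of 8 collagen genes and none of 4 complement genes. Among all 27025 genes with a promoter the share was 3.99%. A GAS match was present in 3, 2, 1, none and 1 of the genes of these lists, in the same order, compared with 9.55% of all 27025 genes. These are counts of letters in a short window and say nothing of binding.

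Complement genes were higher for 7 of 9 measured genes, lower for 1 and within counting error for 1, with a sum of 2658 and 3613 CPM (0.44, 0.38 to 0.51), or 0.26 without the unevenly held clusters. C3 (ENSMUSG00000024164, chr17:57203970-57228136, minus strand), the central component, was at 75.1 and 323 CPM (2.11, 1.78 to 2.44), and found in 9.04% and 21.7% of thinned cells. The proteases of the C1 complex, C1s1 and C1ra, were at 544 and 742 CPM (0.45) and at 368 and 529 CPM (0.52), and C4b at 115 and 209 CPM (0.86). Serping1, the C1 inhibitor, was also higher at 1011 and 1265 CPM (0.32), with a ratio of 0.093 without those clusters.

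Genes of the adipocyte lineage were divided, with 6 of 11 measured genes higher and 3 lower, and a summed ratio of 0.15 that was -0.0098 without the unevenly held clusters. Lpl, lipoprotein lipase, was at 259 and 641 CPM (1.31), Apod, a lipocalin, at 1672 and 2055 CPM (0.30, but -0.12 without the unevenly held clusters), and Ebf1, an early adipogenic transcription factor, at 412 and 574 CPM (0.48). Cebpa, a late one, was at 66.2 and 38.0 CPM (-0.80). Fabp4, the fatty acid carrier of adipocytes, was at 38.7 and 301 CPM, but 60.1% of its CL UMIs came from 1 cell. Mural cells held 4563 and 5669 CPM of it. A separate set of 6 adipocyte markers gave 2 UMIs in Ctrl and 13 in CL (3.16, 1.02 to 6.36). The part of these markers in the results was not tested. Of the contractile genes 4 of 6 lay within counting error. Acta2, smooth muscle actin, was at 63.2 and 141 CPM (1.15), with 84.0% of its CL UMIs in 1 cell, and without that cell its ratio was -0.33. Only 3 of 15 cell division genes were measured, and the list summed to 343.0 and 343.9 CPM.

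Immediate early and heat shock genes, which digestion of tissue is known to induce, were lower in the CL cells for 12 of 14 genes and within counting error for 2. Their sum went from 16400 to 12757 CPM (-0.36, -0.39 to -0.33). The summed ratio was -0.65 without the unevenly held clusters, and 9 of 14 alternatives moved it outside its counting interval. Hspa1a and Hspa1b, encoding inducible HSP70, were at 561 and 224 CPM (-1.33) and at 896 and 408 CPM (-1.14), and Fos was at 1725 and 1288 CPM (-0.42, or -0.95 without those clusters). In empty droplets the list held 15815 and 14148 CPM, and in adventitial fibroblasts its ratio was -0.08. This list moved with the collagens in direction, and its part in the other differences was not tested.

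By size of the ratio alone, beyond the genes above, the lowest in the CL cells were Ramp3, which modifies calcitonin-family receptors, at 62.5 and 3.08 CPM (-4.34), and Nrgn, a calmodulin-binding protein better known from neurons, at 136 and 16.4 CPM (-3.05). Rgs16 (-2.16), the neurotrophic factor Gdnf (-2.05), the ectonucleotidase gene Entpd1 (133 and 32.9 CPM, -2.02), the growth factor antagonist Spry1 (94.5 and 23.6 CPM), Id1, a target of BMP signalling (122 and 31.8 CPM, -1.94), Col7a1 (-1.93) and Mmd (-1.78) followed. Nrgn, Col7a1 and Mmd were leading genes of the cluster of 31 Ctrl and 5 CL cells, and Ramp3 and Gdnf of one of 10 and 2. Without the unevenly held clusters the ratios were -0.86 for Ramp3, -2.01 for Nrgn, -0.54 for Gdnf, -0.68 for Col7a1 and -1.62 for Mmd. Highest were Cxcl9 and the macrophage elastase gene Mmp12 (1.49 and 52.4 CPM, in 2 and 3 cells). The acute phase gene Saa3 was at 17.9 and 149 CPM, with 83% of the CL UMIs in 1 cell, and it changed sign to -1.20 with the fibroblast limit at 2%. Ly6c1, a surface protein, was at 40.9 and 209 CPM (2.36, 1.92 to 2.81), and the GTPase gene Gbp3 at 17.1 and 85.2 CPM (2.32). Ly6a, or Sca-1, a progenitor marker and interferon target, was at 365 and 946 CPM (1.37), against 1230 and 1368 CPM in empty droplets. Both Ly6 genes belong to the list of adventitial genes, of which 6 of 15 were measured, 2 higher, 2 lower and 2 within counting error.

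Against the adventitial fibroblasts, the cells without Pi16 and Dpp4 are described only, since the rule chose them by 2 of the genes and they were shallower. Over 6661 genes, 48 (0.721%) were at least 2-fold higher and 29 (0.435%) at least 2-fold lower in both libraries. Apart from Pi16 and Dpp4, the 10 lowest held Cilp, cartilage intermediate layer protein, at log2 ratios of -3.15 in Ctrl and -4.58 in CL. Among them were also Ccn2, a matricellular growth factor (-2.24 and -2.60), Eln (-1.84 and -2.50) and Igfbp2 (-2.55 and -1.87). Mfap4, which organises elastic fibres, was at 173 and 115 CPM against 532 and 586 CPM in adventitial cells (-1.62 and -2.35). The highest were Myoc, myocilin, with 106 and 83 UMIs against 0 and 1, of which 14 and 12 cells held any, Fabp4 (2.99 and 3.56), Cpe, carboxypeptidase E (2.24 and 3.76), complement C2 (2.42 and 2.24) and Il33 (1.99 and 1.72). Idi1, Cyp1b1, Pltp, a phospholipid transfer protein (1.56 and 2.54), Eps8 and Ccl11 (1.24 and 1.35) completed the 10 highest. Of these 10, Fabp4 stood higher in mural cells, at 4563 and 5669 CPM, as did Cpe (386 and 174 CPM) and Idi1 (142 and 187 CPM). The rest were lower in mural cells than in the cells without Pi16 and Dpp4. The part of mural RNA in these ratios was not tested. Ccl11 stood at 1056 and 942 CPM against 448 and 370.4 CPM in the adventitial cells. The 10 lowest also held Arhgap20, Anxa3 and Opcml. For Myoc in Ctrl the adventitial level was set to 3 UMIs, which makes the difference at least 4.02 on the log2 scale. Collagens were lower than in adventitial cells in both libraries, with sums of 25802 against 33660 CPM in Ctrl and 15355 against 21465 CPM in CL. Genes of the parenchymal fibroblast list, such as Col15a1 and Penk, were neither 2-fold higher nor 2-fold lower in both libraries for any of the 13 compared.

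Within each library the cells were far from uniform for some genes. Thinned to one depth, 1344 genes had a mean of at least 0.2 UMIs in both libraries, and the variance over the mean, which is 1 for random sampling of molecules, was above 2 in both for 161 of them. With the lower value of both libraries taken for each gene, the median was 1.115. Ccl2 varied most, at 108 in Ctrl and 87.8 in CL. Among the other secreted proteins described here, high values were found for Apod (30.9 and 32.5), Cxcl2 (27.8 and 21.8), Ccl11 (14.5 and 17.1), Cxcl1 (13.2 and 11.7) and Il6 (12.9 and 11.9). The same secreted proteins were thus unevenly distributed in each library.

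All fibroblasts were also grouped into 9 clusters by their transcriptomes, of which 6 held at least 10 cells without Pi16 and Dpp4 from each library. The other 3 held 31 and 5, 10 and 2, and 9 and 4 cells of Ctrl and CL, and 2 of the 6 held 13 Ctrl cells against 25 and 24 CL cells, so the libraries did not fill the clusters alike. The cluster of 31 and 5 cells had the highest collagen sum in Ctrl, 35703 CPM. Since the clusters were drawn from the same genes, they serve here only to compare the libraries among cells of like profile. The collagen sum was lower in CL in 6 of 6 clusters, with log2 ratios from -1.34 to -0.25. Most of this sum came from Col1a1, Col1a2 and Col3a1, so the count is not independent of the rule that found the cells. Interferon gamma genes were higher in 6 of 6 (0.51 to 2.31), as were type I genes (0.10 to 1.11) and MHC class I genes (0.32 to 1.29). Stress genes were lower in 6 of 6 (-0.97 to -0.23), and Timp3 in 5 of 6. Other genes did not keep one direction: Il6 and Ptx3 were higher in 4 of 6 and lower in 2, Dcn, Cxcl10 and Csf1 were higher in 3 and lower in 3, and Tnfaip6 and Postn were higher in 2 and lower in 4. In a cluster of 28 and 32 such cells, Gbp2 stood at 24.8 and 369 CPM and the collagen sum at 11779 and 8563 CPM. In another of 28 and 24 cells, Gbp2 stood at 70.0 and 1063 CPM and Timp3 at 873 and 58.1 CPM. A cluster of 17 and 15 cells, none of them adventitial, had the highest level of Ccl2, at 43683 and 45268 CPM, and here Gbp2 went from 49.9 to 299 CPM. The sums behind these levels were small, at 161139 and 159876 UMIs in the cluster of 28 and 32 cells. In the cluster of 17 and 15 cells they were 60138 and 43474 UMIs. Low cluster levels such as those of Gbp2 in Ctrl thus rest on few UMIs and are given without intervals. One cluster held 17 fibroblasts, of which 9 and 4 were cells without Pi16 and Dpp4. Over all 17, it carried luminal markers at 8125 CPM and had a median of 17308 UMIs. Leaving it out kept the collagen, interferon and MHC class I ratios within their counting intervals.

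**Figure D5:**
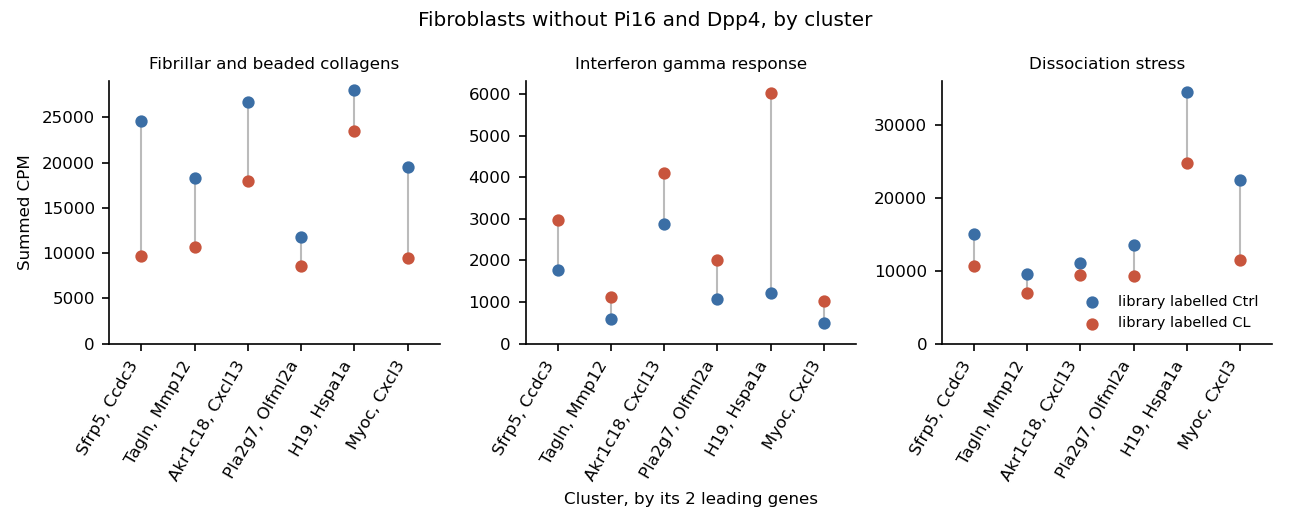
Summed CPM of the collagen, interferon gamma and stress lists in fibroblasts without Pi16 and Dpp4 (vertical axes from 0), for the 6 clusters with at least 10 such cells from each library, named by their 2 leading genes, with a line joining the Ctrl and CL values. The CL point lies below the Ctrl point for collagens and stress genes in 6 of 6 clusters and above it for interferon gamma genes in 6 of 6. Most of the collagen sum came from Col1a1, Col1a2 and Col3a1, which the rule also used.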

How the data were processed

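Each library was a 10x Genomics preparation of digested mammary gland, with a matrix of 6794880 barcodes. The authors deposited raw UMI counts per gene and barcode for the mm10 build. The deposited file header names Cell Ranger 4 and the submitters' processing notes Cell Ranger 2.1.1. The listed barcodes (7217 and 10555) did not index the matrix, so as many columns with the most UMIs were taken as candidates, reaching down to 615 and 648 UMIs and holding 82.7% and 85.7% of the UMIs. The libraries shared 22 candidate columns by barcode. Cells with at least 500 genes and at most 15% mitochondrial UMIs were retained. No doublets were removed, since the highest 6% of Scrublet scores were left out only as an alternative.

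UMIs were summed over the cells of a library and given as CPM with exact Poisson intervals, and ratios with exact conditional binomial intervals (95%, counting error only; UMIs of 1 cell are not independent). Shares have Clopper-Pearson intervals. For shares of cells with a UMI, cells were thinned to 1851 UMIs. A share of 0 and a count of 0 were read against 3 counts. Python 3.11.15, scipy 1.17.1, scanpy 1.11.5 (clusters) and, for TMM factors as an alternative, R 4.3.3 with edgeR 4.0.16 were used. With 1 library per condition no test across libraries was made and no p-value is given. On simulated counts of 5513 genes with 200 changed, the interval held the true ratio for 96% of changed and 96.0% of unchanged genes. These counts were independent Poisson draws, as the intervals assume, without variation between cells. The simulation thus checks the calculation only and says nothing of the intervals under the real spread between cells.

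The members and the 25 gene lists were chosen with earlier results of these data known. Named genes were the most abundant and the most different of each list, and the 10 highest and 10 lowest ratios of each comparison among genes whose higher sum reached 50 UMIs and 50 CPM. The latter omitted markers of other cell types, genes without a proper name, genes of the sex chromosomes and genes for globins, ribosomal proteins and the mitochondrial genome. Genes named besides these were chosen after their values were seen. Coordinates are those of GENCODE M21, in which 32158 of 32285 features were found.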

Additional observations from a re-analysis of the deposited data

How the results depend on the processing

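Among the summed ratios of the 25 gene lists, 265 of 349 values under alternative settings stayed within the counting interval. In all, 14 values from 4 lists changed sign. The ratios of 3 of these lists (WNT, BMP and TGF beta, collagen processing, cell division) lay within counting error of 0, and that of adipogenic genes turned to -0.0098 without the unevenly held clusters. Of 3722 values for single genes, 281 moved, and 18 values of ratios past counting error changed sign.

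Without the 3 unevenly held clusters, 73 genes were at least 2-fold lower, and the summed ratios were -0.60 for collagens, 0.23 for hyaluronan, 0.027 for macrophage growth factors, 0.21 for inflammatory, 0.72 for type I interferon, 1.24 for interferon gamma, 0.98 for MHC class I and 0.26 for complement genes. The share of retained cells had a log2 ratio of -1.14 with the 2% limit. A minimum of 200 UMIs left 27 genes higher and 27 lower at least 2-fold, and a minimum of 1 UMI gave 1948 and 2851. With 0 UMIs of Pi16 and Dpp4 demanded, 24 genes were at least 2-fold above the other fibroblasts. That limit gave summed ratios of -0.58 for collagens, -0.26 for glycoproteins, 0.28 for inflammatory genes and 0.37 for complement, and a limit of 100 CPM for both genes together gave 0.39 for hyaluronan, 0.44 for macrophage growth factors and 0.48 for inflammatory genes. The 2% limit gave -0.58 for collagens, -0.21 for glycoproteins, 0.41 for hyaluronan, 0.54 for macrophage growth factors, 0.23 for inflammatory, 1.65 for interferon gamma and 1.23 for MHC class I genes. Counting each cell equally gave -0.39 for glycoproteins, 0.21 for hyaluronan, 0.27 for macrophage growth factors, 0.22 for inflammatory, 0.84 for type I interferon, 1.35 for interferon gamma, 1.02 for MHC class I and 0.27 for complement genes. Without the highest doublet scores, collagens were at -0.79, macrophage growth factors at 0.43 and inflammatory genes at 0.51. TMM factors gave -0.71 for collagens and -0.26 for glycoproteins, and leaving out cells with Pecam1 or Cdh5 gave -0.84 for collagens. Macrophage growth factors were at 0.20 with a minimum of 1000 genes, 0.42 with a mitochondrial limit of 5% (inflammatory genes 0.33), 0.29 without the luminal-led cluster and 0.29 in cells with at least 3000 UMIs. MHC class I genes were at 1.04 without the genes that did not stand above empty droplets. The cause was not tested.

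The genes that changed sign were Saa3 (-1.20) and Dcn (0.071) with the 2% limit, Ccl11 (0.031), Igfbp3 (0.053) and Ccl8 (-0.060) with each cell counted equally, Hbegf without high doublet scores (0.15) or the luminal-led cluster (0.19), and Acta2 with the 2% limit (-0.29), without high doublet scores (-0.41) and without its top cell (-0.33). Without the unevenly held clusters these were Thbs2 (0.22), Vcan (0.47), Ereg (1.17), Igfbp3 (0.90), Lif (0.011), Cebpd (-0.065), Apod (-0.12) and Stmn1 (0.014). No paired analysis was possible because each condition has 1 library. The alternatives that left out cells by Pecam1 or Cdh5, the luminal-led or unevenly held clusters, cells under 3000 UMIs or a gene's top cell, and the share among cells without Ptprc, were chosen after seeing the data. Totals of 974040 to 1343984 UMIs set how low a gene can be measured, and the spread between animals cannot be had from these libraries.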
